A study of Homo sapiens with 6 samples.

Results

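The genes examined here encode the enzymes that make and break down polyamines and the proteins that control ornithine decarboxylase. The 10 members, ODC1, AMD1, SRM, SMS, OAZ1, OAZ2, AZIN1, SAT1, SMOX and PAOX, were taken by name from the 60671 annotated features of the expression matrix. No cut on their values was used, but the list was chosen with earlier results of these data known. All 10 were found, and 9 were high enough to be tested. RNA was sequenced from tumors of MDA-MB-231, a triple-negative line of human breast cancer cells, grown in the mammary fat pads of female NSG mice, which lack T, B and NK cells. The tumor core (TC, 3 samples) was compared with the tumor margin (TM, 3 samples). Both groups carried wild-type cells of this 1 line and had received the orthotopic injection and no other treatment. The study's methods count mice in each group, but whether a core and a margin with the same number came from the same mouse was not given, so p-values measure the spread between these samples only. The title of the series names polyamine metabolism, so the question taken up is whether polyamine gene RNA differed between the zones.

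Polyamines are small positively charged molecules that bind nucleic acids and are needed for translation and growth. Ornithine decarboxylase (ODC1) makes putrescine, and spermidine synthase (SRM) and spermine synthase (SMS) add aminopropyl groups that S-adenosylmethionine decarboxylase (AMD1) provides. Antizymes (OAZ1 and OAZ2) bind ornithine decarboxylase and send it to the proteasome, whereas the antizyme inhibitor (AZIN1), a relative of ODC1 without its activity, binds antizyme in its place. Antizyme protein is made through a ribosomal frameshift that polyamines promote, and the RNA level does not show that step. Breakdown starts with acetylation by SAT1, followed by oxidation by PAOX in peroxisomes, or with direct oxidation of spermine by SMOX. ODC1 and SRM are textbook targets of the transcription factor MYC, which binds the E-box CACGTG. Both have this hexamer near a start site, and these stretches are shown because MYC was among the pathway genes whose TC and TM values did not overlap.

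The stretches are 5′ to 3′ on the minus strand, from RefSeq promoter windows on GRCh38.p14, with the E-boxes in capitals. The ODC1 stretch is chr2:10447993-10448062, around an alternative RefSeq start and inside the ODC1 gene, outside every exon that GENCODE v29 annotates for it. The SRM stretch is chr1:11060069-11060268, upstream of the gene and in no other annotated gene.
ODC1: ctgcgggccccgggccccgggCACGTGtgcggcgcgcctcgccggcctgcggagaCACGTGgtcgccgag
SRM: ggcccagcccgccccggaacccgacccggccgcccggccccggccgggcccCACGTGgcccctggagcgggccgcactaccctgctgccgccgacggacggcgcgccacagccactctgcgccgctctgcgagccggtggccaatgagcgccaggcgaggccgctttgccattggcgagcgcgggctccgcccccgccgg
The E-boxes of ODC1 began at positions -29 and 6 from that start, and that of SRM at position -199. The hexamer reads the same on both strands. It was found in 7.26% of all 35116 windows of 300 bases (250 before to 50 after a start), and in 2 of the 10 windows that the table gives for 7 members (AMD1, OAZ1, OAZ2, ODC1, SAT1, SMS and SRM). A match describes letters and not binding.

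The samples were checked before the genes were compared. The label calls the cells epithelial. The keratins KRT8, KRT18, KRT19 and KRT7 lay between 214 and 798 TPM, EPCAM between 3.66 and 6.02, and CDH1 at 0.36 or less, beside VIM at 3797 to 5283 TPM. The summed level was 1407 to 1995 TPM for 6 epithelial markers and 4914 to 6424 for 5 mesenchymal ones. ESR1 and PGR were at 0.22 TPM or less, and ERBB2 at 22.3 to 40.7 (summed with them, 22.3 to 24.1 in TC and 30.9 to 41.0 in TM). Skeletal muscle markers (14 of 14 found, 12 of them at 1 TPM or more in some sample) summed to 10.2 to 13.4 TPM in TC, and to 274.8, 693.1 and 6.18 in TM replicates 1, 2 and 3. Fibroblast markers (10 of 10 found) summed to 66.3 to 226 TPM in TC and to 478.6, 1007 and 91.5 in TM. Most of the fibroblast sum was COL1A1 (44.7 to 161 TPM in TC, and 335, 698 and 62.9 in TM). DCN was at 4.82 TPM or less, and LUM, THY1 and PDGFRA at 0.38 or less, in all 6 samples. Thus, by these sums, TM replicates 1 and 2 stood apart from TM replicate 3 and from TC. Yet FAP and PDGFRB of the fibroblast list and ATP2A1 and TNNI2 of the muscle list were lower in every TC sample than in every TM sample. Their values in TM replicate 3 were 2.51, 3.90, 1.04 and 0.40 TPM, beside highest TC values of 1.97, 2.58, 0.61 and 0.38. The summed markers of endothelium (3.77 to 7.02 TPM, EMCN at 0) and macrophages (96.3 to 113) overlapped between the 2 zones. So did those of adipocytes (15.9 to 30.3, ADIPOQ and LEP at 0) and erythroid cells (0.29 to 6.93, HBA2 at 0). Most of the macrophage sum was CD68 (84.8 to 93.5 TPM), and most of the adipocyte sum was PPARG (15.6 to 29.5). Singly, CSF1R of the macrophage list and TEK and PECAM1 of the endothelial list were lower in every TC sample than in every TM sample. No gene of these lists showed the reverse. Whether these cell types differed between the zones was not tested. The mitochondrially encoded share of TPM was 6.08 to 8.82% in TC and 9.23 to 11.1% in TM. Depth was unknown, since TPM keeps none, and in bulk tissue fewer cells of a type and less RNA per cell cannot be told apart.

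The levels of the members were given in TPM, a unit corrected for transcript length that allows comparison between genes. OAZ1 was by far the most abundant, with a mean of 1546 TPM over the 6 samples and 6.44 to 14.5 times the level of the next gene, SAT1. SAT1 (168 TPM), SMS (161), ODC1 (134), SRM (133) and OAZ2 (119.7) formed a middle group in which no neighbour in this order was higher in more than 4 of 6 samples. AZIN1 (70.5 TPM), AMD1 (33.8), SMOX (11.2) and PAOX followed, and each of these steps, from OAZ2 downwards, held in 6 of 6 samples. OAZ1 varied least between samples, with a coefficient of variation of 8.76%, and SRM most among the tested members, with 25.5%.

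**Figure D1:**
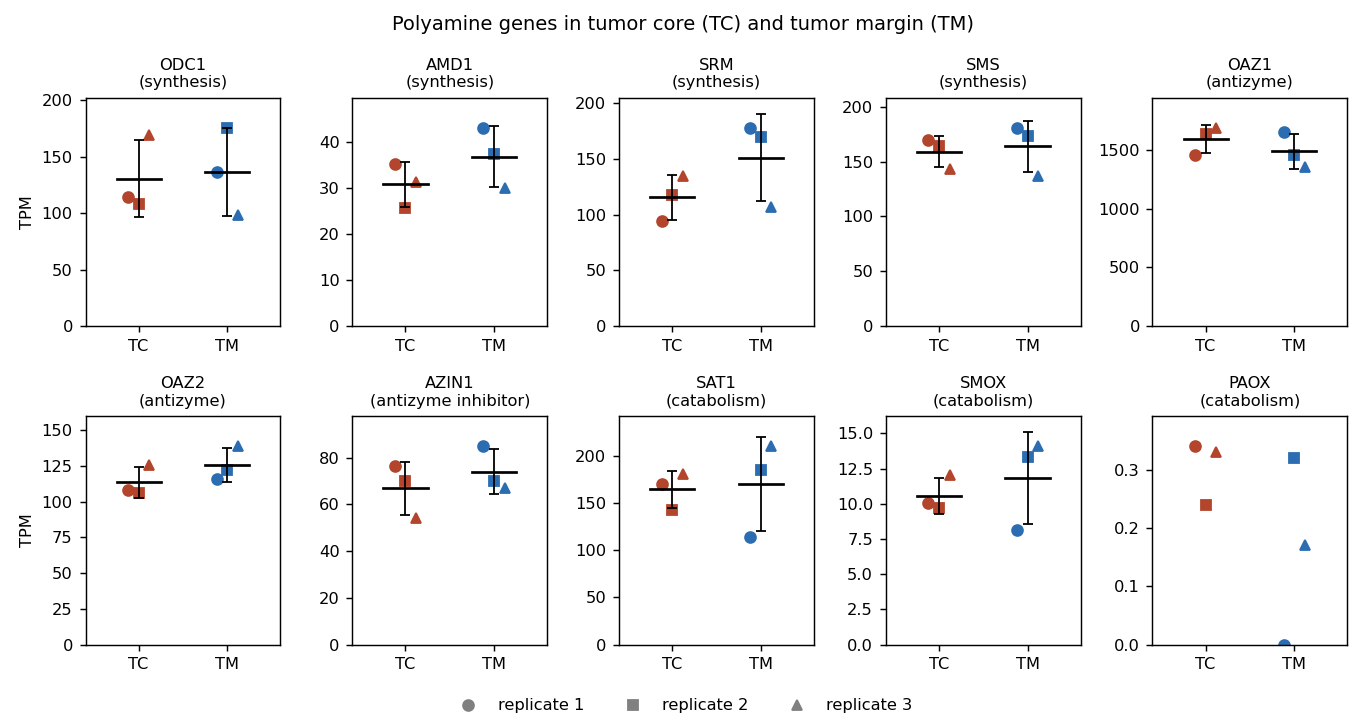
TPM of each of the 10 polyamine genes (vertical axes, each from 0) in the 3 TC and 3 TM samples, with marker shapes for replicate numbers. Bars give the mean and SD except for PAOX, where a sample is listed at 0. The TC and TM points overlap in every panel.

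No member separated the zones. At a limma adjusted p under 0.05, 0 of 9 members were called, against 0.137% of the 13861 tested genes, and 0 of 9 had an unadjusted p under 0.05, against 16.2% of the tested genes. The TC and TM values overlapped for all 10 members, whereas 18.9% of tested genes had every TC value below every TM value and 3.28% the reverse. The log2 differences (TC minus TM, of log2(TPM + 1) values) were negative for 8 of 9 members, with a median of -0.12, but the median of all tested genes was itself -0.14. Relative to that median, 5 members lay above and 4 below. This shift of all genes depends on scaling, being 0.021 after median-of-ratios scaling and 0.014 after quantile normalization.

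The synthetic enzymes are given first. ODC1 (ENSG00000115758; chromosome 2, 10439968 to 10448504) measured 114.4, 108 and 169.6 TPM in the TC samples (replicates 1, 2 and 3, the order used throughout) and 136, 176 and 98.1 in the TM samples. Its highest and lowest values were both in TM, and its TC mean was 131 ± 33.8 TPM and its TM mean 137 ± 38.8 TPM (SD, n = 3). The log2 difference was -0.054 (SE 0.24, 95% interval -0.61 to 0.51, limma adjusted p = 0.947). With TM replicate 3 as the only TM sample it was 0.38. Differences within the 95% interval are not excluded by these samples.

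SRM (ENSG00000116649; chromosome 1, 11054584 to 11060024) measured 94.3, 118 and 134 TPM in the 3 TC samples, against 178, 169 and 106 in the TM samples. The 2 high values were those of TM replicates 1 and 2, the samples with the highest sums of muscle and fibroblast markers. TM replicate 3 lay within the TC range. The log2 difference of -0.36 was the most negative among the members (SE 0.22, 95% interval -0.87 to 0.14, limma adjusted p = 0.480). It became 0.10 with TM replicate 3 as the only TM sample and -0.60 without it (limma adjusted p = 0.894 and 0.121). The part of the muscle and fibroblast transcripts in this difference was not tested.

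AMD1 (ENSG00000123505; chromosome 6, 110874770 to 110895713) was the least abundant synthetic gene. Its TC samples held 35.4, 25.6 and 31.4 TPM and its TM samples 43.2, 37.4 and 30.1. Its difference was -0.25 (SE 0.19, 95% interval -0.68 to 0.18, limma adjusted p = 0.587). The AMD1 difference was -0.13 without TC replicate 2 or without TM replicate 1, -0.38 without TM replicate 3, and -0.074 after median-of-ratios scaling. SMS (ENSG00000102172; chromosome X, 21940573 to 21994835) was the steadiest of them, with TC values of 170.03, 164 and 143 TPM and TM values of 181, 173 and 137. Its difference was -0.036 (SE 0.15, 95% interval -0.37 to 0.30, limma adjusted p = 0.939). The TC values of SMS lay inside the TM range.

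Among the regulators of ornithine decarboxylase, OAZ1 (ENSG00000104904; chromosome 19, 2269509 to 2273490) had the only positive difference. It gave 1464, 1642 and 1694 TPM for TC and 1655, 1463 and 1358 for TM, and 2 of the TC values lay inside the TM range. The log2 difference was 0.10 (SE 0.13, 95% interval -0.20 to 0.40, limma adjusted p = 0.769), and it was -0.022 after quantile normalization. OAZ2 (ENSG00000180304; chromosome 15, 64687573 to 64703281), a second antizyme, had TC values of 108, 106 and 126 TPM and TM values of 116, 122.5 and 139, a difference of -0.15 (SE 0.13, 95% interval -0.45 to 0.16, limma adjusted p = 0.651).

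AZIN1 (ENSG00000155096; chromosome 8, 102826357 to 102893864) measured 76.3, 70.2 and 54.3 TPM in the 3 TC samples, against 85.0, 70.1 and 66.95 in the TM samples. Its difference was -0.15 (SE 0.17, 95% interval -0.54 to 0.24, limma adjusted p = 0.728). The antisense gene AZIN1-AS1 overlaps it and was listed at 1.63 to 4.44 TPM. How strand entered the quantification was not clear from the sources, so a small part of either value may belong to the other gene.

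The catabolic genes spread more within TM than within TC. SAT1 (ENSG00000130066; chromosome X, 23783173 to 23786226), the rate-limiting acetyltransferase, gave 171, 143 and 181 TPM for TC and 114, 186 and 211 for TM. The TM samples thus held both the lowest and the highest values, around means of 165 ± 19.9 TPM for TC and 170 ± 50.1 TPM for TM (SD, n = 3). The log2 difference was -0.0066 (SE 0.23, 95% interval -0.52 to 0.51, limma adjusted p = 0.993). SMOX (ENSG00000088826; chromosome 20, 4120980 to 4187747) had TC values of 10.02, 9.67 and 12.05 TPM and TM values of 8.12, 13.3 and 14.1, again with both extremes in TM. Its difference was -0.12 (SE 0.24, 95% interval -0.67 to 0.43, limma adjusted p = 0.860). PAOX (ENSG00000148832; chromosome 10, 133379234 to 133391694) did not reach the level required for a test. It was listed with 0.34, 0.24 and 0.33 TPM for TC and 0, 0.32 and 0.17 for TM. As listed, the peroxisomal oxidase lay at least 29.5 times below SMOX in each of the 5 samples where it was above 0. The protein-coding gene AL360181.3 overlaps PAOX by 861 bases on the same strand and was listed at 0.16 to 0.82 TPM. It exceeded PAOX in TM replicates 1 and 3 (0.36 and 0.82 TPM), so the level of PAOX is uncertain.

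**Figure D2:**
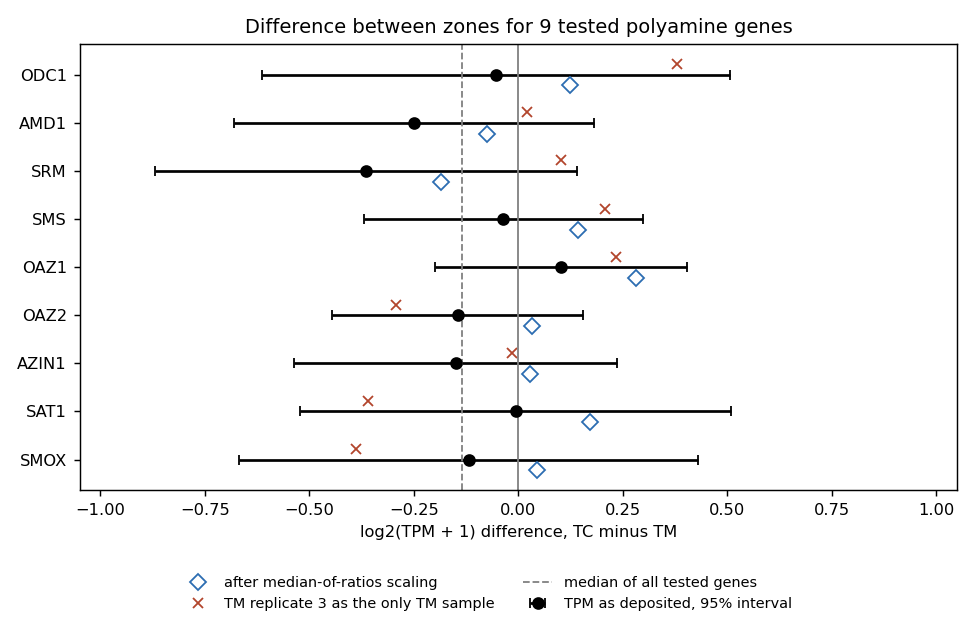
Difference of log2(TPM + 1), TC minus TM, for the 9 tested polyamine genes (black points, with 95% intervals from limma), after median-of-ratios scaling (blue diamonds) and with TM replicate 3 as the only TM sample (red crosses). Every black interval includes 0, and the dashed line marks the median of all tested genes at -0.14.

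To compare members in a way that does not depend on how samples are scaled, ratios within a sample were formed. The pair that moved least was SMOX to SAT1, the catabolic enzymes. TC samples had ratios of 0.0585, 0.0678 and 0.0666, and TM samples 0.0710, 0.0716 and 0.0668. Its coefficient of variation was 6.98%, although SMOX and SAT1 themselves varied by 20.6% and 20.4%. The log2 ratio differed by -0.12 between zones (exact permutation test, two-sided p = 0.2, adjusted p = 0.7 over 7 ratios).

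The ratio of OAZ1 to ODC1, antizyme against its target, came to 12.8, 15.2 and 9.98 for TC and 12.1, 8.32 and 13.8 for TM. Antizyme RNA thus exceeded ODC1 RNA in all 6 samples, and the log2 ratio differed by 0.16 (exact permutation p = 0.6). SMS to SRM, the enzymes that make spermine and spermidine, came to 1.80, 1.39 and 1.06 for TC and 1.02, 1.02 and 1.29 for TM. SMS was the higher of the pair in all 6 samples, and the log2 ratio was 0.33 higher in TC, with overlap (exact permutation p = 0.2, adjusted p = 0.7). That value was 0.14 without TC replicate 1 and 0.52 without TC replicate 3.

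SAT1 to ODC1, breakdown against synthesis, came to 1.5, 1.32 and 1.07 for TC and 0.839, 1.06 and 2.15 for TM. The TM range enclosed all TC values, and the log2 ratio differed by 0.048 (exact permutation p = 0.9). The log2 ratios of AZIN1 to ODC1, AMD1 to ODC1 and SMOX to SMS differed by -0.098, -0.20 and -0.091 (exact permutation p = 0.8, 0.6 and 1). Their adjusted values were 1, and the smallest p that 3 samples against 3 allow is 0.1. PAOX to SMOX was not tested because of the sample listed at 0.

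**Figure D3:**
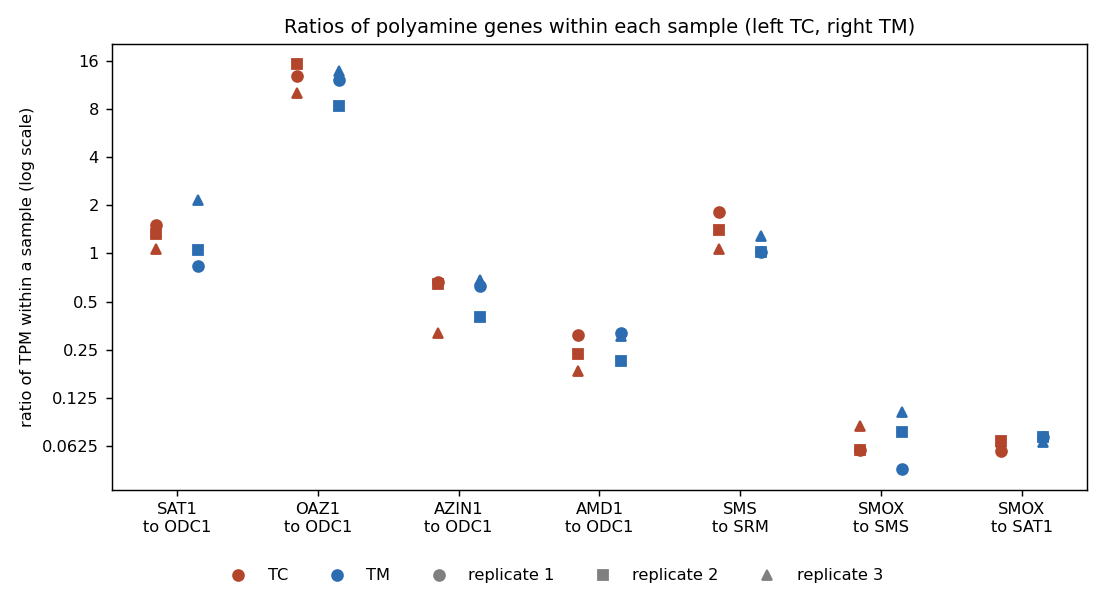
Ratio of the TPM of 2 polyamine genes within each sample (vertical axis, log scale), for 7 ratios, with TC to the left and TM to the right and shapes for replicate numbers. The SMOX to SAT1 points lie within 0.0585 to 0.0716, while SAT1 to ODC1 ranges from 0.839 to 2.15.

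How the members varied together over the 6 samples was then described. These correlations pool both zones, share each sample's scaling and carry no test. Among 36 pairs of tested members, Pearson r of log2(TPM + 1) ranged from -0.71 (SMS and OAZ2) to 0.94 (SAT1 and SMOX), and only SAT1 and SMOX exceeded 0.8. SAT1 and SMOX ranked the samples in the same order (Spearman rho 1), and r was 0.87 after leaving out the 2 samples farthest from the median of SAT1. Of the 9747 other genes with a mean of at least 5 TPM, SMOX had the highest r with SAT1. RNASEK-C17orf49 (r = 0.93), PIGH (0.93), RHBDD2 (0.91) and ZNF16 (0.90) came next.

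For ODC1 the genes most alike over the 6 samples were IFI35 (r = 0.997), NFKB2 (0.995), SNHG3 (0.985), PITHD1 (0.984) and BST2 (0.984). IFI35 and BST2 are known as interferon-induced genes, NFKB2 encodes an NF-kappaB subunit, and SNHG3 hosts small nucleolar RNAs. IFI35 measured 52.3, 48.4 and 85.0 TPM in the 3 TC samples, against 63.9, 91.1 and 45.4 in the TM samples, high where ODC1 was high. Among the pathway genes compared, ODC1 had r = 0.91 with EIF5A (rho 0.89) and 0.71 with SRM (rho 0.66). EIF5A encodes the translation factor that carries hypusine, an amino acid made from spermidine.

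**Figure D4:**
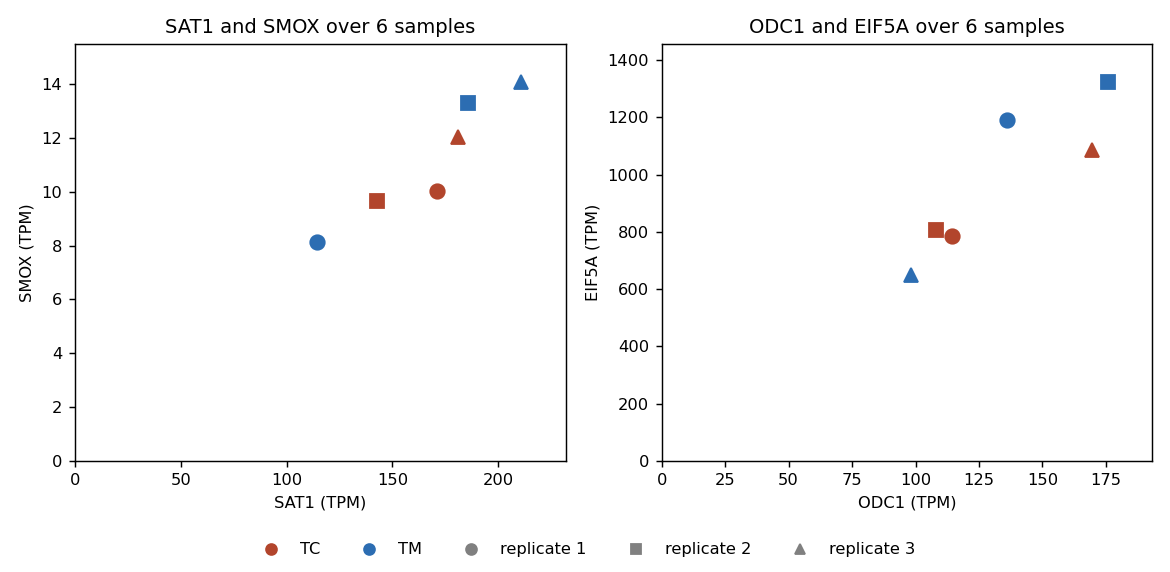
SMOX against SAT1 (left) and EIF5A against ODC1 (right), in TPM, over the 3 TC and 3 TM samples, with shapes for replicate numbers. SMOX follows SAT1 from 8.12 to 14.1 TPM and EIF5A follows ODC1 from 650 to 1324 TPM, with TC and TM points mixed in both panels.

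The wider pathway was examined with 38 further genes for ornithine supply, methionine use, hypusine, transport, paralogs and MYC. Of these 26 were tested and 0 were called (smallest limma adjusted p = 0.0843). An unadjusted p under 0.05 was found for 4, all lower in TC. These are 15.4% of the genes tested, close to the 14.2% of all tested genes that met this in the same direction. Values did not overlap for 6 of 26 (23.1%, against 18.9% of all tested genes), again all lower in TC, and the median log2 difference was -0.16.

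The largest log2 difference among them was that of MAT2A, which makes S-adenosylmethionine, the source of the aminopropyl groups. MAT2A gave 77.8, 50.2 and 42.3 TPM for TC and 131, 100.4 and 119 for TM. Every TC value was below every TM value, TM replicate 3 included, with means of 56.8 ± 18.6 and 117 ± 15.3 TPM (SD, n = 3). The log2 difference was -1.07 (SE 0.22, 95% interval -1.58 to -0.55, limma adjusted p = 0.0843), so it did not pass the threshold. It lay between -1.31 and -0.88 over all alternatives, with limma adjusted p-values of 0.0700 to 0.300.

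MRI1, an isomerase of methionine salvage, had TC values of 7.17, 8.57 and 6.93 TPM and TM values of 18.3, 9.70 and 14.4, which differed by -0.79 on the log2 scale (SE 0.25, limma adjusted p = 0.178). No other tested gene of methionine use separated the zones. MYC measured 98.2, 108 and 109 TPM in the 3 TC samples, against 199.9, 140 and 133 in the TM samples, a difference of -0.56 (SE 0.17, 95% interval -0.95 to -0.17, limma adjusted p = 0.168, and 0.106 to 0.475 over the alternatives). The MYC values thus did not overlap between the zones, as for 18.9% of all tested genes, while those of ODC1 and SRM, whose E-boxes are shown above, did. Over the 6 samples, both zones pooled, MYC had r = 0.77 with SRM (rho 0.83) and 0.20 with ODC1 (rho 0.37). The r with SRM was 0.13 after leaving out the 2 samples farthest from the median of SRM. That with ODC1 was 0.63 after leaving out the 2 samples farthest from the median of ODC1. Whether ODC1 or SRM follows MYC was not tested. ATP13A2, a lysosomal polyamine exporter, gave 59.3, 68.5 and 60.0 TPM for TC and 93.5, 77.9 and 74.1 for TM, a difference of -0.38 (SE 0.14, limma adjusted p = 0.242).

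In the remaining groups 0 genes had an unadjusted p under 0.05, and the most abundant of each is given. EIF5A had TC values of 785, 808 and 1086 TPM and TM values of 1192, 1324 and 650. As with SRM, its high TM values were in replicates 1 and 2, and the log2 difference was -0.19 (SE 0.27, limma adjusted p = 0.789). Its level is uncertain, since near-identical copies of EIF5A can share its reads. OAT, which interconverts ornithine and glutamate semialdehyde, had a difference of 0.11 and SAT2, a paralog of SAT1, of 0.25 (limma adjusted p = 0.823 and 0.537). DOHH, the second enzyme of hypusine formation, and the vesicular transporter SLC18B1 were picked out after their values were seen, as the other genes without overlap. DOHH measured 14.7, 14.4 and 14.5 TPM in the 3 TC samples, against 23.3, 18.7 and 16.3 in the TM samples (log2 difference -0.38, SE 0.18, limma adjusted p = 0.355). SLC18B1 gave 6.27, 5.75 and 6.10 TPM for TC and 7.34, 7.70 and 6.90 for TM (log2 difference -0.24, SE 0.19, limma adjusted p = 0.606).

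**Figure D5:**
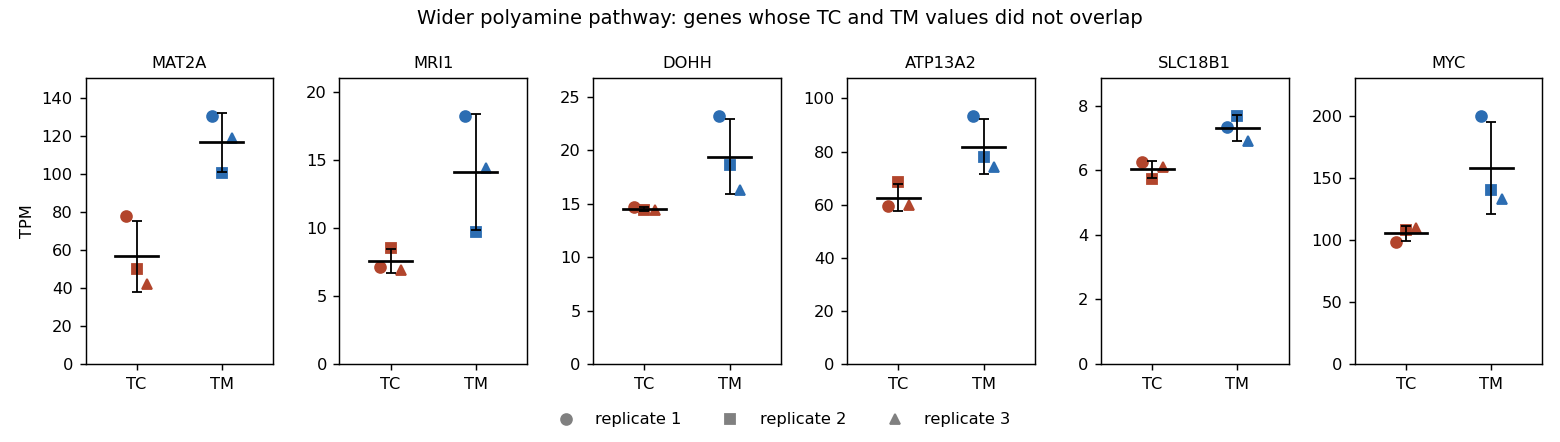
TPM (vertical axes, each from 0) of the 6 tested genes of the wider polyamine pathway whose TC and TM values did not overlap, with the mean and SD of 3 samples. All 6 are lower in TC, and the highest TC value of MAT2A, 77.8 TPM, lies below its lowest TM value, 100.4 TPM.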

How the data were processed

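Total RNA of 3 TC and 3 TM samples was sequenced by the authors from TruSeq libraries. They trimmed reads with SeqPrep and Sickle and used HISAT2, StringTie and RSEM on hg38. The authors deposited gene TPM values, in which transcript length is accounted for and each sample sums to a fixed total (994381 in TM replicate 3, about 1000000 in the others). No annotation release and no step that parts mouse from human reads was given in the sources used here. The count model of the study needs counts and was not run. The 259 assembled loci were left out.

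Groups and replicate numbers came from the titles. Symbols were matched by Ensembl identifier (60401 of 60671 annotated features), and positions are from GENCODE v29. Genes reaching 1 TPM or more in 3 or more of the 6 samples were compared as log2(TPM + 1) by limma 3.58.1 in R 4.3.3 (empirical Bayes with a trend, two-sided, Benjamini-Hochberg over 13861 genes, threshold 0.05). The fit was checked on simulated data, in which the added changes were larger than any difference of the members. That check does not show whether differences of the size seen for the members can be detected. Ratios within a sample were compared by exact permutation (scipy 1.17.1). Of 8 planned ratios 7 could be tested. Alternatives were a pseudocount of 0.1 (1 for the ratios), no filter, quantile and median-of-ratios scaling, omission of mitochondrially encoded genes, a replicate block, other moderation, leaving out each sample, and, added after the data were seen, TM replicate 3 as the only TM sample.

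The members and all lists (wider pathway, 9 marker lists) were chosen with earlier results of these data known. The value of 1 marker gene is not reported here. Named genes are all members, pathway genes with an unadjusted p under 0.05 or else the most abundant gene of the list, the 5 genes most alike to ODC1 and to SAT1 by Pearson r, and pseudogenes and antisense genes of members.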

Additional observations from a re-analysis of the deposited data

How the results depend on the processing

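The number of members called was 0 under every alternative run, and so was that of the wider pathway. Leaving aside the fit with TM replicate 3 as the only TM sample, calls over all tested genes were few as well. They ranged from 1 (for example without TC replicate 3 or without TM replicate 1) to 47 with robust empirical Bayes. The counts of 0 in these fits therefore say little about the members. Members with an unadjusted p under 0.05 numbered 0 to 1 when a sample was left out, the 1 being found without TM replicate 3. Of all tested genes, 11.4% (without TC replicate 2) to 19.2% (without TM replicate 3) met this in either direction. For the wider pathway that number was 4, and it was 2 after median-of-ratios scaling. It was 2 to 7 when each sample was left out (2 without TM replicate 1, 7 without TM replicate 3). All of these were lower in TC. The share of all tested genes that met this in the same direction moved as well. It went from 14.2% to 7.65% (median-of-ratios scaling), 9.73% (without TM replicate 1) and 16.8% (without TM replicate 3, beside 26.9% of the pathway genes). The 2 did not always move together. Without TC replicate 2 or 3 the pathway kept 4 genes (15.4%), while the share of all genes was 9.94% and 10%. Nothing about the pathway is read from these counts.

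The sign of small differences turned with scaling. After median-of-ratios scaling the log2 differences of ODC1, SMS, OAZ2, AZIN1, SAT1 and SMOX were 0.12, 0.14, 0.033, 0.027, 0.17 and 0.044. After quantile normalization those of ODC1, SMS, OAZ1, SAT1 and SMOX were 0.0033, 0.017, -0.022, 0.012 and 0.077. With TM replicate 3 as the only TM sample, assumed to vary like the others, those of ODC1, AMD1, SRM and SMS were 0.38, 0.022, 0.10 and 0.21. Leaving out each sample gave -0.27 to 0.15 for ODC1, -0.16 to 0.040 for SMS, -0.27 to 0.17 for SAT1 and -0.35 to 0.015 for SMOX. Without a turn in sign it gave -0.60 to -0.23 for SRM, -0.38 to -0.13 for AMD1, -0.25 to -0.0087 for AZIN1, -0.22 to -0.072 for OAZ2 and 0.037 to 0.18 for OAZ1. For the log2 ratios it gave -0.23 to 0.44 for SAT1 to ODC1, -0.056 to 0.32 for OAZ1 to ODC1, -0.33 to 0.25 for AZIN1 to ODC1 and -0.42 to 0.18 for SMOX to SMS, and, without a turn, 0.14 to 0.52 for SMS to SRM, -0.39 to -0.020 for AMD1 to ODC1 and -0.16 to -0.054 for SMOX to SAT1. The cause of these turns was not tested. With 3 samples a group, the 95% intervals of the members reached 0.37 to 0.87 from 0 on their wider side, and depth could not be judged.

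The replicate block cannot change the differences in this balanced design (-0.36 for SRM in both fits), only their SE and p-values. With it 0 members were called, and the calls over all genes went from 19 to 1. Deviations of samples with the same number correlated at 0.21, -0.12 and -0.16, and only replicate 1 of each zone correlated best with its own number, so the numbers were not taken to pair the samples.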

Other observations

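Some genes of the pathway were too low to compare. MTAP, which clears the methylthioadenosine that SRM and SMS release and is often lost in tumor lines together with its neighbour CDKN2A, had TC values of 0.01, 0.83 and 0 TPM and TM values of 0.01, 0 and 0, while the next enzymes of that salvage route, MRI1, APIP, ENOPH1 and ADI1, lay between 6.93 and 62.4 TPM. MTAP was picked out after its values were seen. ARG1, OTC, ATP13A4 and SLC22A2 were listed at 0 in all 6 samples, and OAZ3 was at 0.05 to 1.55 TPM.

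Copies of the members took almost no signal. The pseudogenes AMD1P1, AMD1P2, AMD1P4, SRMP1, SRMP2, SRMP3 and SMSP1 were listed at 0 in every sample, OAZ1P1 at 0.13 TPM in TC replicate 1 alone, and AMD1P3 at up to 0.22. Near-identical copies can lose reads to the parent gene, so these values are uncertain. The divergent transcript ODC1-DT was at 0.24 to 0.73 TPM. The protein-coding gene AC005258.1, which overlaps OAZ1 on the same strand, was at 0.06 TPM or less.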
